A study of Mus musculus with 13 samples.

Results

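Sox9 is the HMG-box transcription factor without which chondrocytes, the cells of cartilage, do not arise or lay down cartilage matrix. It binds the minor groove of DNA and bends it, and in cartilage enhancers it often binds as a dimer on paired, inverted sites. Rib cartilage comes from mesoderm, whereas the cartilage of the nasal septum comes from the neural crest. A Sox9 peak found in both thus comes from cells of different embryonic origin. Direct binding of Sox9 to the DNA of these peaks was not tested. The regions described here are the Class I Sox9 peaks of rib chondrocytes that share sequence with a Sox9 peak of nasal septum chondrocytes. They were chosen by position alone. A peak of the rib Class I list belonged to them when it had 1 or more bases in common with any peak of the nasal list. They numbered 4677 of 6794 Class I peaks, and 16.9% of the 27656 peaks in the whole rib list. The other 2117 Class I peaks were the set they were compared with.

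The series holds 13 ChIP-seq libraries from untreated wild-type ICR mice, 11 from rib and 2 from nasal septum. The rib Sox9 library came from chondrocytes enzymatically released from ribs at postnatal day 1, and the nasal Sox9 library from septum chondrocytes at embryonic day 17.5. Both used the same antibody, and tissue and age differ together between them. The labels do not say whether animals were pooled. The other 11 libraries, among them inputs and IgG, are not used here, and no control background can be set beside these counts. Each list comes from 1 library and gives positions on mm9 without height, so depth is unknown. Peaks of 1 library are not replicates. Every interval below is a 95% interval that treats peaks as independent and covers counting error only, and neighbouring peaks are not independent. The labels do not define Class I or Class II. The identity of the cells could not be checked against marker genes, because no mm9 annotation was used here.

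Among the shared Class I peaks, 1 stands beside a gene name in the deposited list. It closes the Class I list and is a peak of 486 bp at chromosome 11, 100256750 to 100257235 (all peak positions are mm9, counted from 1). The line names Jup, the gene for junction plakoglobin, a protein of desmosomes and adherens junctions. The nasal peak at 100257100 to 100257283 shared 136 bp with it, or 28.0% of its length, and the centres of the peaks lay 199 bp apart. It stood at place 10829 of the rib list and its partner at place 14752 of the nasal list. It also overlapped 1 Class II peak, by 162 bp. The promoter of Jup is printed as the gene sequence that the list itself points to. It comes from RefSeq on GRCm38.p6, chr11:100397741-100398040, minus strand, and covers 250 bases before to 50 after the annotated start, with each CpG in capitals. Because that build is not the build of the peaks, the distance between the peak and this promoter is not known.
Jup promoter: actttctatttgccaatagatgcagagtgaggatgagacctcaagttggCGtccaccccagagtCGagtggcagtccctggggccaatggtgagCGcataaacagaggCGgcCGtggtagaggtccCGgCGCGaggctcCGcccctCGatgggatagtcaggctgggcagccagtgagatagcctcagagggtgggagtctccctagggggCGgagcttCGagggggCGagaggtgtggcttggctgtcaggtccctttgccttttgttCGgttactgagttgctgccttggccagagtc

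The Jup promoter held 14 CpG dinucleotides and 60.7% G and C, against medians of 7 and 52.7% over the 32851 promoters of 300 bases in the same table. At least as many CpG were found in 36.3% of those promoters. Letters that resemble the core bound by SOX proteins were searched on both strands. ACAAAG occurred in 18.7% of all promoters, ACAATG in 12.6% and AACAAT in 10.7%, and none of them in this window. The last of these can overlap the second by 5 bases. The sequence of the peak itself was not searched, so these values concern the promoter alone.

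Shared Class I peaks and their nasal partners mostly had centres close together, which the rule favours among narrow peaks and which is given as a description. The median shared Class I peak had 127 bp in common with its best partner, with quartiles of 87 and 167 bp. Nasal peaks covered a median of 79.2% of its length. They covered all of it in 1179 peaks, or 25.2%, and at least 50% of it in 3649, or 78.0%. Centres lay a median of 40.5 bp apart and were within 100 bp of each other in 82.0% of the shared Class I peaks. A single nasal peak met 4556 of them, 2 nasal peaks met 119, and 3 met 2. In the other direction, 4715 nasal peaks took part, of which 4631 met a single Class I peak, 83 met 2 and 1 met 3.

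Few peaks sat at the threshold. Only 66 shared Class I peaks, 1.41%, had 10 or fewer bases under a nasal peak, and 5 had a single base. Just outside, 5 of the other Class I peaks touched a nasal peak without a base in common and 1 had a gap of 1 bp. Of the 2117 other Class I peaks, 42 lay within 10 bp of a nasal peak, 202 within 50 bp, 484 within 200 bp and 889 within 1 kb. No nasal peak lay within 1 kb of the remaining 1228, or 58.0% (55.9% to 60.1%), whereas 1936 of the 2117 had one within 100 kb.

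The earliest shared Class I peak in the rib list stood at place 8, at chromosome 11, 116975547 to 116975719. Its nasal partner, at place 77 of the nasal list, covered 94.8% of its 173 bp, with centres 9.5 bp apart. The next, at chromosome 2, 77456814 to 77456993 and place 32, was covered whole, but by a nasal peak far down its list at place 6461. The others among the first 5 had partners early in the nasal list. They lay at chromosome 2, 145613395 to 145613609 (rib place 75, nasal place 192), at chromosome 11, 79466960 to 79467193 (88 and 360) and at chromosome 7, 97208463 to 97208718 (97 and 547). All of these 5 had another rib peak within 5 kb. Over all shared Class I peaks, 31.6% had another Class I peak within 5 kb and 11.8% a Class II peak. The earliest Class I peak outside the set came at place 187, at chromosome 5, 31248117 to 31248240, and missed a nasal peak by 17 bp.

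Shared Class I peaks stood earlier in the rib list than the other Class I peaks. Place means the line number in the whole rib list, and the labels do not say what orders that list. Their median place was 15112, with quartiles of 8931 and 21318, against 20725, with quartiles of 15142 and 24802, in the other Class I peaks. A shared Class I peak preceded another Class I peak in 0.673 of all pairs. The first 50% of the rib list held 44.7% of the shared Class I peaks and 20.4% of the others, an odds ratio of 3.16 (2.80 to 3.57). When the list was divided into 10 bins of equal size, nasal peaks met 90.3% of the Class I peaks in bin 2 (87.0% to 93.0%), 80.2% in bin 4, 71.5% in bin 6, 64.8% in bin 8 and 49.0% in bin 10 (45.8% to 52.1%). Of the 27 Class I peaks of bin 1 that no nasal peak met, 11 had a nasal peak within 1 kb. Of the first 100 Class I peaks of the list 87 were shared, and of the last 100, 49. Of the 20862 Class II peaks, nasal peaks met 7170, with 2065 of these in bin 1 and 179 in bin 10. Bins 1 and 10, equal in size, held 221 and 1015 Class I peaks. A fall in sharing along the list is therefore not particular to Class I.

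**Figure D1:**
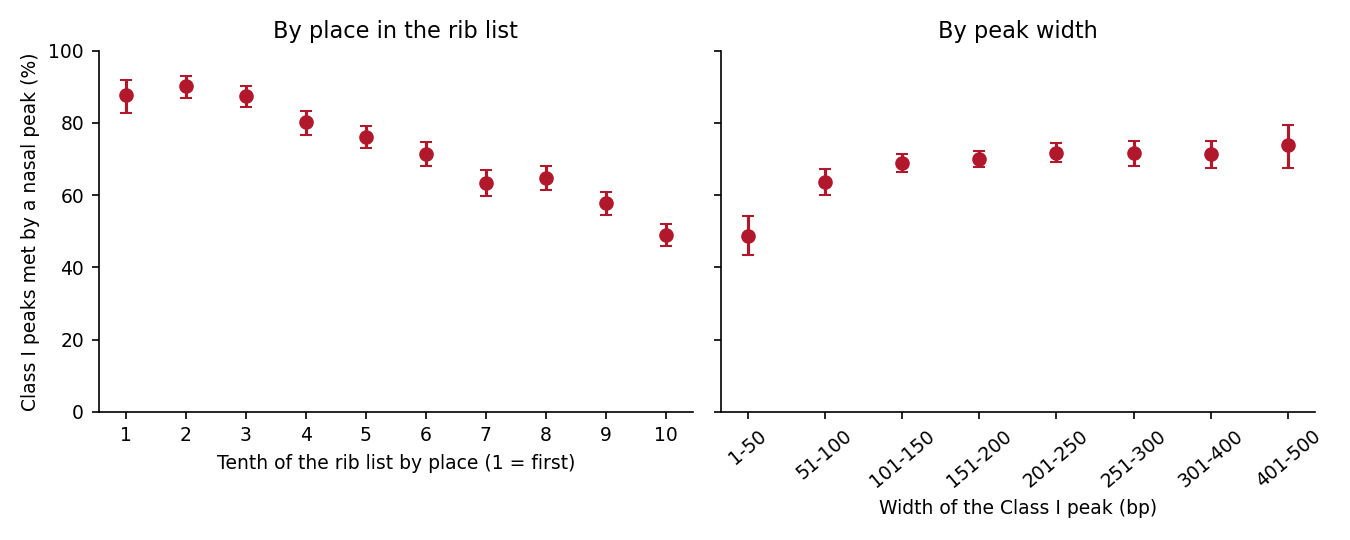
Share of Class I peaks that a nasal peak met (%, points) with exact 95% binomial intervals (bars), by place in the rib list in 10 bins of equal size (left) and by width of the Class I peak in bp (right). The share is 90.3% in bin 2 and 49.0% in bin 10, while above a width of 100 bp it lies between 69.0% and 73.8%.

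Width moved with sharing as well. The median width was 181 bp in shared Class I peaks and 168 bp in the other Class I peaks, and 41.0% and 35.7% of them were at least 200 bp wide, an odds ratio of 1.25 (1.13 to 1.39). Within bins of the rib list it was 1.47 (1.31 to 1.64), and the median was higher in shared Class I peaks in 9 of the 10 bins, with bin 2 the exception. Nasal peaks met 48.7% (43.3% to 54.1%) of Class I peaks of up to 50 bp, 63.7% of those over 50 and up to 100 bp and 69.0% of those over 100 and up to 150 bp. Above 150 bp the share lay between 70.2% and 73.8%. A wide peak meets another list more easily, and that part of the difference was not tested. With centres within 200 bp in place of shared bases, the odds ratio for width was 0.973 (0.875 to 1.08), an interval that includes 1.

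The nasal partners of shared Class I peaks stood early in the nasal list. Nasal peaks that met a Class I peak made up 41.7% (39.4% to 44.0%) of the first of 10 equal bins of the nasal list, 29.8% of bin 5 and 9.75% (8.40% to 11.2%) of bin 10. Expressed as a share of each list, with the earliest partner taken for each peak, the median shared Class I peak stood 54.6% of the way down the rib list and its partner 34.7% of the way down the nasal list. Class II peaks that a nasal peak met, 7170 in number, showed the opposite order, at 21.3% in the rib list and 43.5% in the nasal list. The partner was relatively earlier in 3500 of the 4677 shared Class I peaks, or 74.8% (73.6% to 76.1%), and in 24.3% (23.3% to 25.3%) of the shared Class II peaks. Peaks far down the rib list can hardly have a partner that is relatively later, so the bins were compared singly. In each of the 10 bins of the rib list the partners of shared Class I peaks were earlier than those of shared Class II peaks. In bin 2 the medians were 12.7% for Class I and 40.3% for Class II, in bin 5 they were 30.2% and 55.5%, and in bin 9 they were 50.6% and 66.7%. Only in bin 1 did fewer than 50% of the shared Class I peaks have a relatively earlier partner, with 35.1% (28.4% to 42.2%), and the share there was 6.73% (5.69% to 7.90%) for shared Class II peaks.

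**Figure D2:**
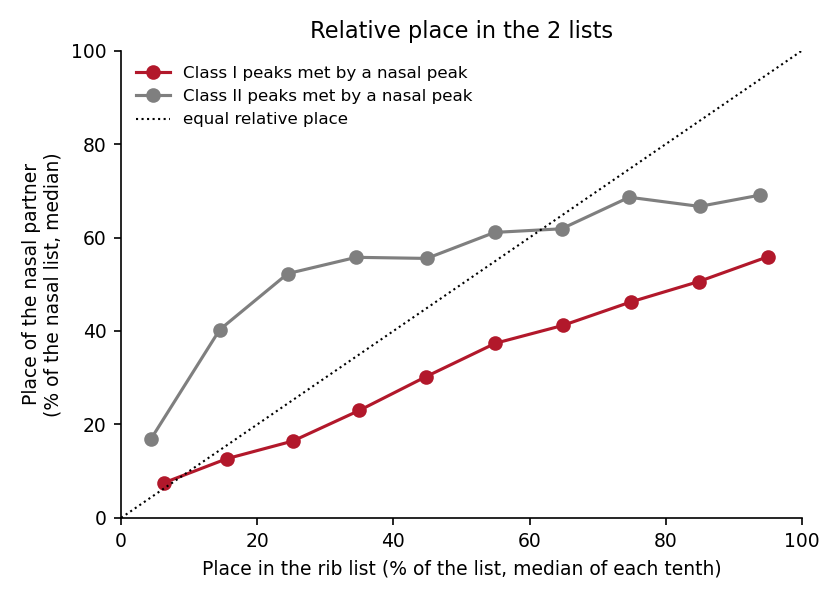
Median place of the nasal partner (% of the nasal list) against median place in the rib list (% of the rib list), for each of 10 bins of the rib list, in shared Class I peaks (red) and shared Class II peaks (grey). The dotted line marks equal relative place, and the red points lie below the grey ones in all 10 bins, at 12.7% against 40.3% in bin 2.

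Taken over the whole list, centres of shared Class I peaks matched those of their partners less closely than centres of shared Class II peaks did. Within 50 bp lay 57.6% of the shared Class I peaks and 66.8% of the shared Class II peaks, with an odds ratio, within bins of the rib list, of 0.823 (0.756 to 0.897). This difference turned along the list, so the pooled value does not describe a difference common to all bins. In bins 1 to 3 the share within 50 bp was higher in shared Class I peaks, with 79.4% against 69.4% in bin 1. From bin 4 on it was lower in each bin, with 47.9% against 60.3% in bin 10. In bin 1 the median distance was 21.5 bp in shared Class I peaks and 29 bp in shared Class II peaks, and in bin 10 it was 53 bp and 42.5 bp.

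Shared Class I peaks stood apart from Class II peaks more often than the other Class I peaks did. A Class II peak lay within 10 kb of 1006 shared Class I peaks, or 21.5% (20.3% to 22.7%), and of 619 of the others, or 29.2% (27.3% to 31.2%). The odds ratio was 0.663 (0.590 to 0.745), and 0.575 (0.508 to 0.650) within bins of the rib list. The share was lower in shared Class I peaks on 19 of 20 chromosomes, chromosome 10 being the exception, and in 9 of 10 bins, bin 1 being the exception. Within 1 kb, 2.10% of the shared Class I peaks and 3.12% of the others had such a neighbour, and within 50 kb 60.6% and 66.4%. At 1 kb the share was lower in shared Class I peaks on 13 of 20 chromosomes and higher on 7. It was lower in 8 of 10 bins, with bins 1 and 7 the exceptions. Each of these distances gave an odds ratio below 1.

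Further Class I peaks were also less frequent around them under the rule of 1 shared base. Some Class I peaks overlap each other, and these count as neighbours here and as 1 group below. How many do was not counted. A further Class I peak lay within 1 kb of 1058 shared Class I peaks, or 22.6% (21.4% to 23.8%), and of 648 of the others, or 30.6% (28.7% to 32.6%), with an odds ratio of 0.663 (0.591 to 0.744). The share was lower in shared Class I peaks on all 20 chromosomes and in all 10 bins. Within 10 kb the shares were 36.5% and 45.5% and the odds ratio 0.688 (0.620 to 0.764). The share was lower on 18 of 20 chromosomes, with chromosomes 3 and 16 the exceptions. When a gap of up to 1 kb to a nasal peak also counted as sharing, the odds ratio within 10 kb was 1.46 (1.28 to 1.66). Either rule for sharing bears on this value, since it decides on which side a peak close to a shared peak falls. The size of that part was not tested. With the wider rule 889 of the other Class I peaks changed sides. Of 428 other Class I peaks joined to a shared peak by gaps of up to 1 kb, 417 were among them. Neither a Class I nor a Class II peak lay within 10 kb of 52.3% (50.9% to 53.7%) of the shared Class I peaks and 40.6% (38.5% to 42.8%) of the others.

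**Figure D3:**
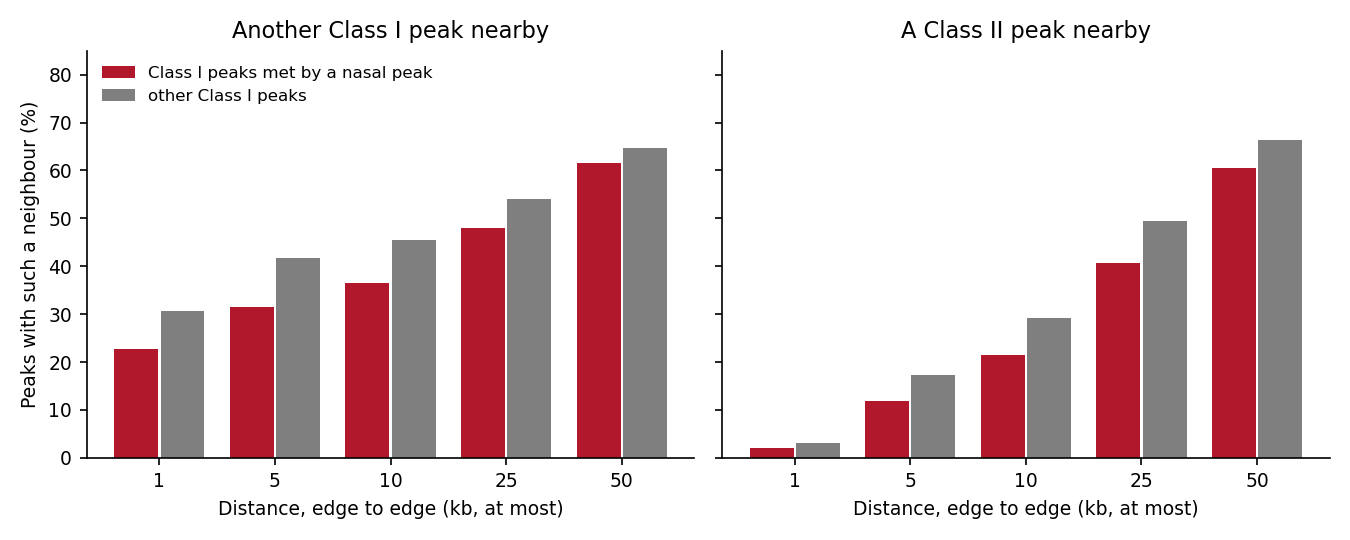
Share of shared Class I peaks (red) and other Class I peaks (grey) that have another Class I peak (left) or a Class II peak (right) within 1, 5, 10, 25 or 50 kb, edge to edge. The red bar is the lower of each pair, at 36.5% against 45.5% for Class I and 21.5% against 29.2% for Class II within 10 kb.

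Close Class I peaks were then described as groups. Class I peaks spaced at most 1 kb apart were joined, which gave 776 groups of at least 2 peaks and 5088 peaks that stood alone. A nasal peak met at least 1 Class I peak in 676 of the 776 groups, or 87.1% (84.6% to 89.4%), and 3619 of the lone peaks, or 71.1% (69.9% to 72.4%). A group is counted as met when any of its peaks is met, which favours a higher share, so these shares are not comparable with each other. Counted by peak, 1058 of the 1706 peaks in groups were shared, or 62.0% (59.7% to 64.3%). Of the groups, 297 were met at every peak, 379 at some and 100 at none.

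Pairs show how a group was split. Of 669 groups of exactly 2 Class I peaks, 276 had both peaks shared, 306 had 1 shared and 87 had neither. Counted by peak, 858 of their 1338 peaks were shared, or 64.1% (61.5% to 66.7%). Whether the split differs from independent sharing of each peak at that rate was not tested, so the counts are a description. In the 306 mixed pairs the shared peak stood earlier in the rib list in 221, or 72.2% (66.8% to 77.2%), against a probability of 0.673 over all combinations of a shared and another Class I peak. Median places were 14227.5 for the shared peak and 22034.5 for its companion. The shared peak was the wider in 178 pairs and the narrower in 128, with medians of 192 bp for the shared peak and 163 bp for its companion. Centres lay a median of 545.75 bp apart, and the gap between the unshared companion and a nasal peak had a median of 262.5 bp. Where both peaks were shared, 59 of the 276 pairs met the same nasal peak. In all, 428 of the 2117 other Class I peaks belonged to a group that held a shared peak.

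The neighbourhood of shared Class I peaks was then read in the Class II list. Of 1012 Class II peaks whose nearest Class I peak lay within 10 kb and was shared, nasal peaks met 40.8% (37.8% to 43.9%). Of 648 whose nearest Class I peak was another, they met 36.4% (32.7% to 40.3%). The odds ratio was 1.20 (0.982 to 1.47), and 1.37 (1.09 to 1.74) within bins of the rib list. At 5 kb the odds ratio within bins was 1.21 (0.864 to 1.70) and at 50 kb 1.10 (0.977 to 1.24). Only the value at 10 kb within bins has an interval that lies above 1. Where no Class I peak lay within 10 kb, nasal peaks met 34.0% of 19202 Class II peaks.

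Shared Class I peaks occupied 3262 fixed windows of 100 kb, and 2303 of them, or 49.2%, had no other shared Class I peak in their window. No Class II peak lay in 1396 of these windows, or 42.8%. At least 5 shared Class I peaks were found in 33 windows, which held 192 peaks together.

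The window with the most lay on chromosome 11, 68800001 to 68900000, with 11 shared and 2 other Class I peaks beside 3 of Class II and 14 nasal ones. Its shared peaks spanned 54.9 kb in clumps, and their places in the rib list ran between 3468 and 22946. Some of them overlapped each other, so 11 counts peaks and not separate sites. Those at 32.479 to 32.829 kb and 32.733 to 32.988 kb from the window's first peak, for example, met the same nasal peak. The adjoining window, at 68900001 to 69000000, held 6 more beside 4 other Class I peaks. On chromosome 13, 23600001 to 23700000 held 9 shared and 4 other Class I peaks over 64.0 kb, with 1 Class II peak. On chromosome 7, 26000001 to 26100000 held 8 shared and 3 other Class I peaks, and 52300001 to 52400000 held 7 shared peaks and 1 other without a Class II peak. On chromosome 8, 86700001 to 86800000 held 7 shared Class I peaks and no other, beside 17 nasal peaks. These were the first 5 windows by number, with ties taken by position. Crowding differed in the windows that follow. The window at chromosome 19, 5800001 to 5900000, which also held 7, had 15 Class II peaks and shared Class I peaks at places between 429 and 11793. The window at chromosome X, 166400001 to 166500000 held 6 shared and 9 other Class I peaks, with its shared peaks inside 7.54 kb.

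**Figure D4:**
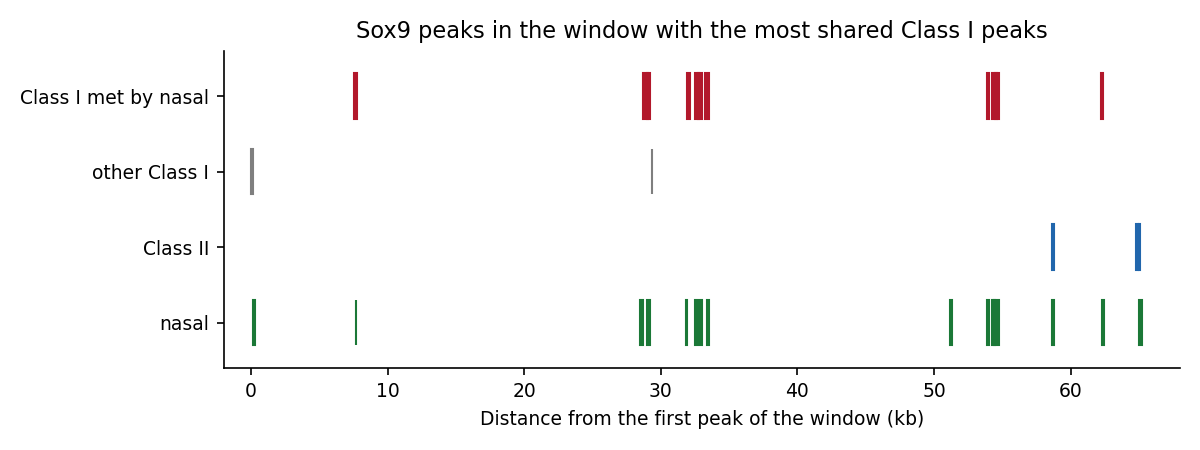
Peaks in the window of 100 kb on chromosome 11 with the most shared Class I peaks, drawn to scale by distance from the first peak of the window (kb), with each bar outlined by a thin line of its colour. The 11 shared Class I peaks (red) form clumps over 54.9 kb, each overlapping a nasal peak (green), beside 2 other Class I peaks (grey) and 3 Class II peaks (blue). Some of the red peaks overlap each other.

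The peaks met by the most nasal peaks were chosen by that number. Of the 2 met by 3 nasal peaks, the first lay at chromosome 8, 19784630 to 19784805, where the nasal peaks together ran from 19784505 to 19784945 with no gap between it and the next Class I peak. The second lay at chromosome 14, 70606102 to 70606347, alone among Class I peaks for 52463 bp. The next by place were at chromosome X, 166435154 to 166435417, at chromosome 10, 102491045 to 102491208, and at chromosome 6, 47600628 to 47601011, each met by 2.

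Every chromosome with a Class I peak contributed shared peaks, and the share differed modestly. Among autosomes it was lowest on chromosome 13, with 160 of 266 or 60.2% (54.0% to 66.1%), and highest on chromosome 2, with 367 of 500 or 73.4% (69.3% to 77.2%). Chromosome 11 held the most, 452 of 617 or 73.3%, and chromosome 7 came next with 389 of 552 or 70.5%. Chromosome X had 53 of 93, or 57.0% (46.3% to 67.2%), and 60.3% (48.5% to 71.2%) when its crowded window was left out, against 69.0% over the autosomes. The intervals of chromosomes 13 and 2 did not overlap. With 20 chromosomes to choose from, the extremes lie apart more readily than any pair fixed beforehand.

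**Figure D5:**
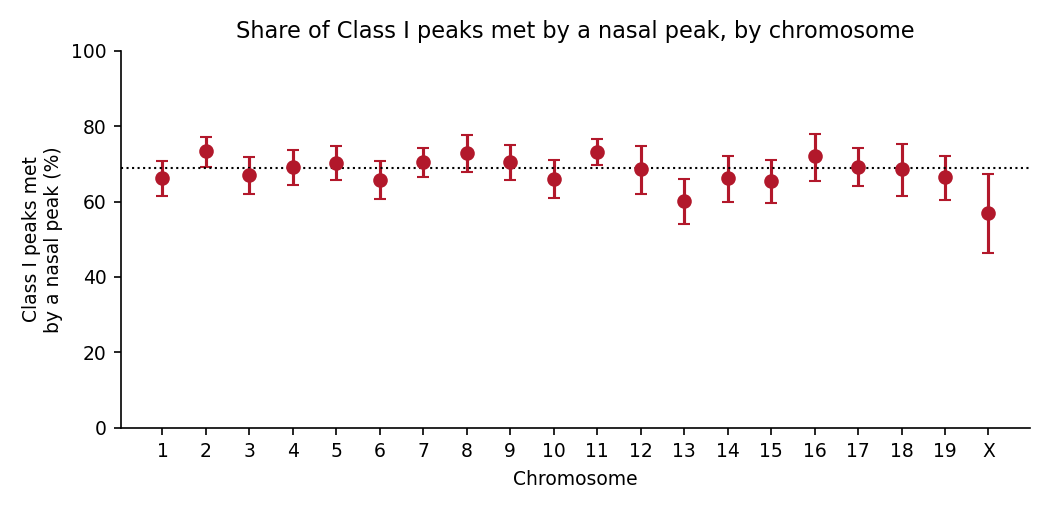
Share of Class I peaks that a nasal peak met on each chromosome (%, points) with exact 95% binomial intervals (bars), and the share over all Class I peaks (dotted line, 68.8%). The points lie between 57.0% on chromosome X and 73.4% on chromosome 2.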

How the data were processed

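Sox9 ChIP-seq was analysed from 1 rib and 1 nasal library. Per the labels' protocols, cells were fixed with 1% formaldehyde for 10 minutes, 20000000 cells and 9 μg of antibody entered each immunoprecipitation, fragments measured 100 to 600 bp, and libraries had 18 PCR cycles. The authors deposited 4 peak lists as start and end positions, an other kind of value that carries no score. The submitters' processing notes name mm9 as the build. An aligner, a peak caller and a definition of the classes: not given in the sources used here.

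Class I peaks sharing 1 bp or more with a nasal peak were compared with the rest. Peaks under 2 or more nasal peaks were measured by their covered bases. Shares have exact (Clopper-Pearson) 95% intervals, odds ratios Wald intervals, and odds ratios within 10 bins, by place or by width, the Mantel-Haenszel estimate. No p-values were computed, as each tissue has 1 library. The members and lists were chosen with earlier results of these data known. Named regions followed a rule: 5 fullest windows, 5 earliest members, 5 with the most nasal peaks (ties by place), and the line with a gene name. The windows on chromosomes 19 and X and the adjoining one on 11, and the earliest unshared peak, were named after their values were seen. The comparisons with transcription start sites, gene lists and peak sequence that were planned need mm9 and were not run. Routines were tested on simulated data and against bedtools 2.31.1. The work ran in Python 3.11.15 with pandas 2.3.3 and numpy 2.4.6, intervals came from scipy 1.17.1 and plots from matplotlib 3.10.9.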

Additional observations from a re-analysis of the deposited data

How the results depend on the processing

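The share of Class I peaks that count as shared with the nasal list moved with the rule. It was 41.4% with at least 50% of both peaks in common, 70.0% with centres within 200 bp, 81.9% with gaps of up to 1 kb, 46.7% against the first 50% of the nasal list, 82.9% in the first 50% of the rib list and 73.2% with Class I peaks up to 1 kb apart counted as 1. The odds ratio for a Class I neighbour reversed to 1.46 with gaps of up to 1 kb. There 417 of the 889 peaks that changed sides sat in a group with a shared peak. What part the rule itself has in the reversal was not tested. For groups against lone peaks it was 2.74, a different quantity whose direction the counting of any met peak favours. That for width was 0.973 (0.875 to 1.08) with centres within 200 bp, below 1 with an interval that includes 1, and the cause was not tested. The other alternatives kept direction and side, with 0.643 to 0.874 for a Class I neighbour, 0.575 to 0.778 for a Class II neighbour and 2.94 to 3.30 for the first 50% of the rib list. Windows shifted by 50 kb held up to 16 shared peaks, against 11. Counting neighbouring peaks as 1 and leaving out the crowded windows on chromosomes 17 and X were chosen after seeing the data. No paired analysis was possible because each tissue has 1 Sox9 library. Depth is unknown, so sharing that was not found is not shown to be absent.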

Other observations

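Among the autosomes, shared Class I peaks were densest on gene-rich chromosomes. They ranged from 1.25 per Mb on chromosome 12 to 3.81 per Mb on chromosome 11 among the autosomes, over the span covered by peaks, and stood at 0.330 per Mb on chromosome X. Against protein-coding genes per Mb, whose number on each chromosome came from RefSeq (GRCm38.p6), Pearson's r over the 19 autosomes was 0.926 for shared Class I peaks and 0.823 for the other Class I peaks. Spearman's rho was 0.946 and 0.740. Chromosome X, left out of these values, had 6.02 genes per Mb, beside 5.79 on chromosome 12. The other Class I peaks were sparse on it too, at 0.249 per Mb against 0.571 on chromosome 12. The cause was not tested. For the share itself r was 0.413 and rho 0.488, and r was 0.253 without chromosomes 7 and 11. These correlations describe chromosomes that share 1 library per tissue and are not tests.

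Adjacent Class I peaks were taken in order along the chromosome, by the distance between their centres. Of 851 adjacent pairs up to 1 kb apart, both peaks were shared in 38.3%, 1 in 45.0% and neither in 16.7%. Of 1254 pairs 10 to 50 kb apart these shares were 53.0%, 38.8% and 8.21%, and of 1517 pairs 200 to 1000 kb apart 47.9%, 42.2% and 9.89%.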
